A study of Mus musculus with 45 samples.

Results

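The 10 genes described here, of 23575 in the deposited gene table, were picked by name with earlier results of these data known. Counts among them, set beside the share of all genes, are therefore descriptions. The genes are Id1, Id2, Id3 and Id4, the ligand gene Bmp4, the receptor gene Bmpr1a, and Smad1, Smad5, Smad6 and Smad7. Their values were compared between serum and 2i-LIF, between media in wild-type cells, along a time course, and between stem cells and progenitors. All 10 were found in the table.

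The series followed mouse neural progenitors through reprogramming to pluripotency with Oxford Nanopore long reads, in 22 libraries made by direct cDNA sequencing from poly(A) RNA on R9 flow cells and 23 made by PCR cDNA sequencing from total RNA on R10 flow cells. Progenitors came from the Oct4-GFP stem cell line O4G and had the genotype WT, OKMS-Luciferase-AS or OKS-Luciferase-AS, with 1 line of each. OKMS and OKS are inducible sets of reprogramming factors that differ by Myc in name, and the labels do not say what the luciferase element does. At day 0 the progenitors were in NPC medium, as 4 R9 and 4 R10 libraries (2 WT, 1 OKMS and 1 OKS in each chemistry). Serum here means FBS-LIF with doxycycline, which holds fetal bovine serum, the cytokine LIF and the inducer. R9 held 1 serum library per system (OKMS, OKS) for each of days 2, 4, 6, 10, 14 and 20. R10 held 1 for each of days 2, 6 and 18, and for OKMS 1 each for days 4 and 10. WT cells were held in serum for 2 days (1 R9 and 2 R10 libraries). Some cells were switched to 2i-LIF (kinase inhibitors with LIF and no serum): 3 R9 libraries (OKMS days 14 and 20, OKS day 20) and 2 R10 libraries (OKMS and OKS, day 18). The move came at day 6 in R9, and its day is not labelled in R10. No doxycycline is listed for 2i-LIF, so the medium and the induction of the factors changed together, and in WT cells the serum contrast joins serum, LIF and doxycycline. The embryonic stem cells were WT and grown in 2i-LIF. O4G and R1 have 1 R9 library each, and R10 has 2 of O4G, 2 of R1-Clone3 and 3 of R1.

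Values are CPM, the reads of a gene scaled to a common library total, with no correction for gene length, so levels are compared within a gene and not between genes. Library depth was 448250 to 1391635 reads in R9 and 567129 to 4245818 in R10. A gene was called changed when limma's adjusted p was under 0.05 and the difference in log2(CPM + 1) was at least 1 in size. That scale understates the change of genes with few reads. No label says that replicates came from separate cultures, so p-values measure the spread between these libraries, which may be technical. In R10 the share of reads from mitochondrial genes split with library sets, from 0.124% to 0.319% in the WT progenitors, the WT serum libraries and the R1 stem cell library without an n number, and up to 2.35% in the other stem cells. Summed CPM of 6 pluripotency markers was 10.8 to 30.4 in R9 progenitors, 14.9 to 28.0 in R10 progenitors and 11001 to 13613 in stem cells of both chemistries, and the progenitor marker Olig2 was at 0 in every stem cell library.

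Bone morphogenetic proteins (BMPs), such as BMP4, bind paired type I and type II receptors, and BMPR1A is one of the type I receptors. The active receptor phosphorylates SMAD1 and SMAD5, which enter the nucleus with SMAD4 and switch on targets, among them the Id genes. ID proteins lack a DNA-binding domain and hold E proteins away from DNA, which restrains differentiation. SMAD6 and SMAD7 are inhibitory members that dampen the signal, and their genes are themselves targets of the pathway. In mouse stem cells grown in serum with LIF, BMP activity in serum and the Id genes it induces are known to help hold cells undifferentiated, and in neural progenitors BMP favours an astrocyte fate.

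The Id genes lie on 4 chromosomes of GRCm38 (the same assembly as mm10). In GENCODE M21 they are Id1 (chr2:152736251-152737410, plus strand), Id2 (chr12:25093799-25097140, minus strand), Id3 (chr4:136143497-136145755, plus strand) and Id4 (chr13:48261228-48266026, plus strand). Bmp4 is at chr14:46383520-46390669 and Bmpr1a at chr14:34410734-34503341, both on the minus strand. Smad1 (chr8:79338395-79399518) and Smad6 (chr9:63953076-64022059) are on the minus strand, and Smad5 (chr13:56703010-56742377) and Smad7 on the plus strand. The deposited transcript models overlapped these positions for 10 of 10 genes. The models named Id1 began at 152702960 and those named Id3 ran from 136008489 to 136157402, far beyond the annotated genes, so the Id1 and Id3 values may hold reads of neighbouring sequence. Annotated genes on the other strand overlap Id4 (A330033J07Rik and Gm49291), Bmp4 (Gm15222 and the protein-coding Gm15217) and Bmpr1a (Gm17110). Whether counting used strand is not given in the sources used here.

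Promoter sequence is shown for 4 of the genes that moved with the medium, because the GC-rich element GGCGCC is one at which SMAD1 and SMAD5 are known to bind in Id promoters. RefSeq's promoter table (GRCm38.p6) gives 250 bases before to 50 after each start, 300 in all. It was used for 8 of the 10 genes, all but Id1 and Smad7. Its windows for these genes were 60.0% to 79.3% G or C. The lines below give the longest stretch before the start that holds no annotated or deposited exon, 5′ to 3′, with GGCGCC in capitals.
Id2 (chr12:25096254-25096342, minus strand): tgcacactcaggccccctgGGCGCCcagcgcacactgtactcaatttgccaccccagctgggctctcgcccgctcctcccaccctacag
Id4 (chr13:48260866-48261112, plus strand): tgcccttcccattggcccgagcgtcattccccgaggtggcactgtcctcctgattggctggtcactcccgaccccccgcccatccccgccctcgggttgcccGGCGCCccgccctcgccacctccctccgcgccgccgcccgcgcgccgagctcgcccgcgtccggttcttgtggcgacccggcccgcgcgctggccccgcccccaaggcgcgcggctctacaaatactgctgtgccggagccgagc
Bmpr1a (chr14:34502701-34502796, minus strand): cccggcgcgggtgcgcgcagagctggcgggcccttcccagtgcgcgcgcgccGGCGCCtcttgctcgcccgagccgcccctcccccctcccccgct
Smad6 (chr9:64022060-64022309, minus strand): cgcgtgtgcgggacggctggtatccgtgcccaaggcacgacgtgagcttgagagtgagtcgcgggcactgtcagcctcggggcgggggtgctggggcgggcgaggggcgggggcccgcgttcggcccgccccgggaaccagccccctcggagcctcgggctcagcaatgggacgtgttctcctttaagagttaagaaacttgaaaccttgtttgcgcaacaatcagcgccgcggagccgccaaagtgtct
GGCGCC, which reads the same on both strands, was in 5 of the 10 windows of these 8 genes (1 each for Id2, Id4 and Bmpr1a, and 2 of the 3 for Smad5) and in 11.9% of all 32851 windows of the same length. The 2 Smad5 windows overlap and hold the same site, so by gene the count was 4 of 8. CAGAC, the short SMAD element, searched on both strands, was in 2 of the 10 windows (Id3 and 1 of Smad5) and in 49.6% of all windows. The Smad6, Bmp4 and Smad1 windows held neither string, and the Id3 window held no GGCGCC. The share of G or C in all windows was not counted, so the comparison with all windows is not matched for it. The Id2 and Bmpr1a stretches lie inside the annotated genes and outside their exons. A match describes letters only.

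Reprogrammed cells in 2i-LIF had far lower Id1, Id2 and Id3 than their serum partners, and lower Bmp4, while Bmpr1a and the 4 Smad genes did not pass the test. Of the 10 genes tested, 4 were lower and 0 higher, where 6.32% of 14935 genes were lower and 5.95% higher (12.3% called in all). Bmp4 met the filter (CPM of at least 1 in 5 libraries) only with its serum libraries counted. Median difference over the 10 genes was -0.86, against -0.03 over all genes tested. At unadjusted p under 0.05, 6 of the 10 and 28.1% of all genes tested differed. The comparison rests on 5 pairs of libraries of the same system, day and chemistry. The pairs come from 1 OKMS and 1 OKS line, so days and chemistries within a line serve as replicates.

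In serum, Id1 was at 279 CPM in OKMS day 14, 296 in OKMS day 20 and 167 in OKS day 20 (R9), and at 116 in OKMS and 252 in OKS at day 18 (R10). The partners in 2i-LIF had 3.66, 10.7, 6.98, 10.6 and 9.39 CPM in the same order. All 5 serum libraries lay above all 5 in 2i-LIF. How many of all genes separate in this way was not counted, here or for Id2, Id3 and Bmp4 below. Id1 fell by 4.58 ± 0.29 (SE) on the log2 scale (adjusted p = 2.58e-08, limma). The 5 2i-LIF libraries together held 31 Id1 reads, so their own order cannot be read.
Id2 was at 249, 159, 144, 95.0 and 213 CPM in serum and 6.11, 5.37, 10.5, 7.05 and 9.39 CPM in 2i-LIF, in that order of pairs. Its groups did not overlap either. Id2 fell by 4.28 ± 0.26 (adjusted p = 2.58e-08, limma).
Id3 was at 840, 169, 320, 135 and 435 CPM in serum and 55.0, 21.5, 54.7, 12.3 and 86.0 CPM in 2i-LIF. Within each pair the 2i-LIF library was the lower one, and the groups did not overlap. Id3 fell by 3.01 ± 0.22 (adjusted p = 9.78e-08, limma).

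Id4, whose protein is known to counter the other ID proteins in some settings, followed less clearly. Its serum values were 36.9, 16.0, 15.1, 16.3 and 46.1 CPM, and its 2i-LIF values 9.77, 11.8, 10.5, 15.9 and 4.69 CPM. The 2i-LIF library was lower in 5 of 5 pairs, but the groups overlapped, since OKS day 20 in serum lay under OKMS day 18 in 2i-LIF. OKMS day 20 held 13 reads in serum and 11 in 2i-LIF, and OKMS day 18 stood at 16.3 against 15.9 CPM. The order within these pairs cannot be read. The overlap rests on small counts too, with 21 reads in OKS day 20 in serum. The difference of -1.16 ± 0.41 did not pass (adjusted p = 0.0672, limma). Without the OKMS day 18 pair it passed at -1.44 (adjusted p = 0.0425), and on recovered reads in edgeR it passed at -1.18 (adjusted p = 0.0103), with adjusted p from 0.00824 to 0.452 over all alternatives.

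Bmp4, the ligand, was at 8.44, 17.2, 25.2, 7.42 and 6.40 CPM in serum and 0, 1.07, 2.33, 3.53 and 3.13 CPM in 2i-LIF. The groups did not overlap, at low levels in both: 67 reads in all in serum and 7 in 2i-LIF. Bmp4 fell by 2.22 ± 0.51 (adjusted p = 0.00638, limma). It missed the threshold without the OKS day 20 pair (-2.03, adjusted p = 0.0501) and in the R10 pairs alone (-0.87, adjusted p = 0.702).
Smad1 was higher in 2i-LIF in 5 of 5 pairs, at a mean of 23.6 ± 9.56 against 12.6 ± 5.64 CPM (SD, n = 5), but the difference of 0.86 ± 0.35 did not pass (adjusted p = 0.117, limma). Bmpr1a differed by -0.56, Smad5 by -0.48, Smad6 by -0.09 and Smad7 by 0.07, with adjusted p of 0.297 or more (limma). Smad7 had a mean of 21.0 ± 4.13 CPM in 2i-LIF and 21.1 ± 8.40 CPM in serum (SD, n = 5).

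**Figure D1:**
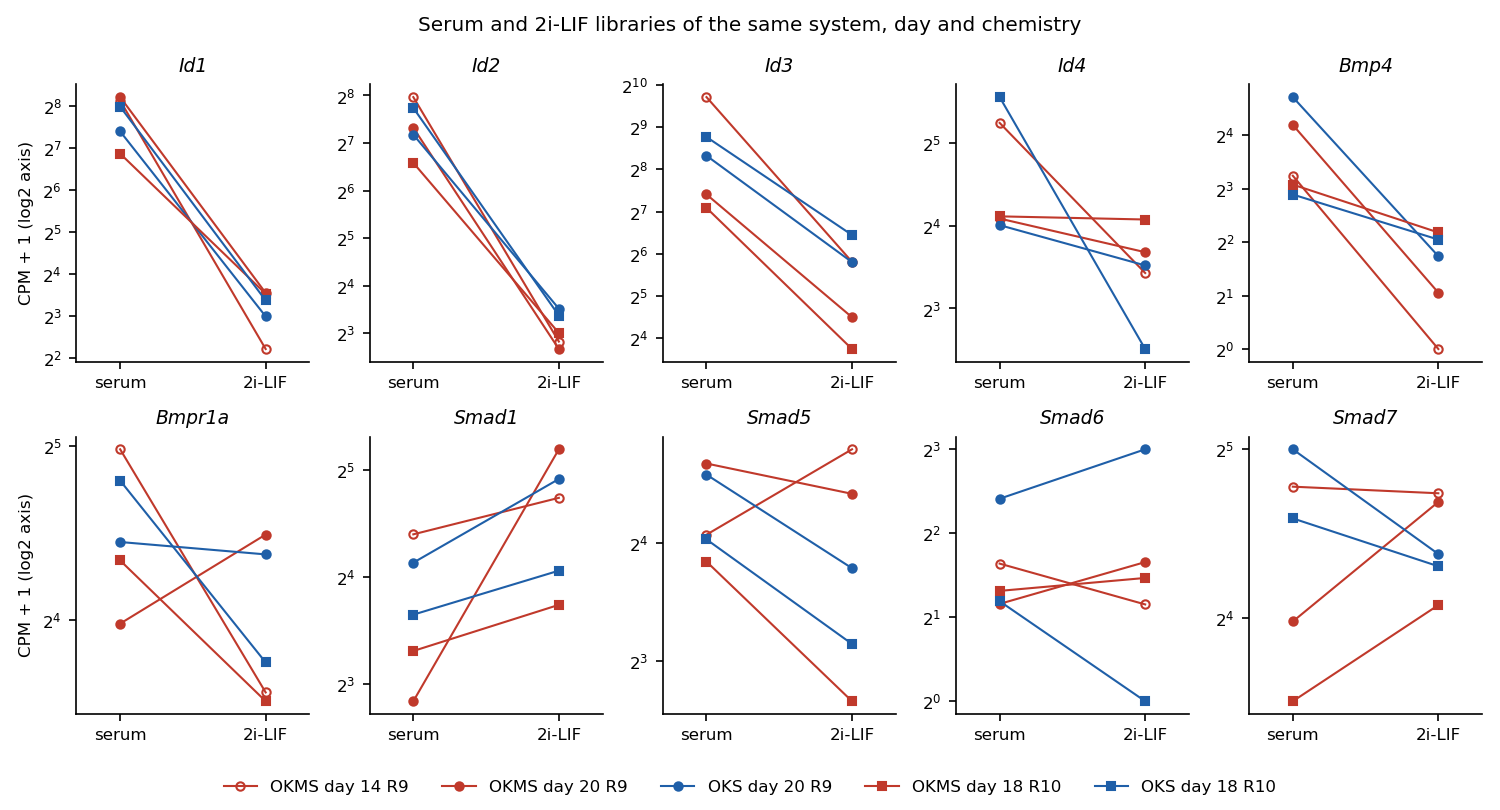
CPM + 1 on a log2 axis in serum (left) and 2i-LIF (right), 1 panel per gene with its own scale; each line joins the 2 libraries of a system (colour), day and chemistry (marker). All lines fall steeply for Id1, Id2 and Id3, with every 2i-LIF library of Id1 at or under 10.7 CPM, and lines run in both directions for Smad6 and Smad7.

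In the wider BMP list, 6 of the 30 genes tested fell and 1 rose, beside 6.32% of all genes lower and 5.95% higher. The largest falls were in Zfp423, a SMAD partner (-3.06), Bmp1, a protease that frees BMPs from their antagonists (-2.51), and the target Atoh8 (-2.10). Fstl1, a secreted BMP-binding protein, fell by 2.09, Skil, a SMAD repressor, fell by 1.79, and the antagonist Nbl1 fell by 1.68. Eng, a co-receptor, was the gene that rose (1.34, named after its value was seen). None of the 3 E-protein genes, whose products the ID proteins bind, passed.
Markers of other cells moved with the medium. The summed CPM of 5 mesenchymal markers was 75.7 to 432 in serum and 12.3 to 23.5 in 2i-LIF, and that of 4 neuron markers 663 to 997 and 219 to 346. Astrocyte markers (1 of 3 tested lower) summed to 32.0 to 380 CPM in serum and 34.9 to 84.6 in 2i-LIF, lower in 4 of 5 pairs. Of the neural progenitor markers 1 of 3 tested was lower, and of the trophoblast and endoderm markers 1 of 2. Only Gata6 and Gata4 of that last list of 5 had values here, and Cdx2, Eomes and Sox17 had none. Among pluripotency markers, 4 of 6 rose in 2i-LIF, with summed levels of 5676 to 15642 CPM in serum and 9800 to 15721 in 2i-LIF. Their part in the result was not tested, and in bulk RNA fewer cells of a type and less RNA per cell cannot be told apart. The medium effect was also tested for a difference between systems and between chemistries, and none of the 10 genes passed (8 of 14935 genes, 0.0536%, and 0 of 14935 passed in all, limma). The smallest unadjusted p were 0.0216 for Id3 between systems and 0.0262 for Bmp4 between chemistries.

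In cells without the factors, the serum medium could be compared with NPC medium. After 2 days in it, WT progenitors had higher Id1, Id2, Id3, Id4, Bmpr1a, Smad6 and Smad7 than WT progenitors in NPC medium. That is 7 higher and 0 lower of 9 genes tested in R10, where 14.9% of 14688 genes were higher and 11.9% lower (26.8% called). A gene was tested when its CPM was at least 1 in 2 or more libraries. Id4, Smad6 and Smad7 met that only through serum libraries, so the filter set their direction in part. The median difference was 2.59 over the 9 genes and 0.12 over all genes tested. Bmp4 was not tested, with 0 CPM in both progenitor libraries and 0 and 1.65 CPM in the serum libraries.

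Id1 was at 33.7 and 22.7 CPM in the progenitor libraries and 561 and 634 CPM in serum, a difference of 4.38 ± 0.26 (adjusted p = 0.00123, limma). The R9 libraries showed 77.6 and 18.4 CPM in progenitors and 730 CPM in serum.
Id2 rose from 66.4 and 154 CPM to 887 and 864 CPM, by 3.10 ± 0.41 (adjusted p = 0.00585, limma). In R9 alone its difference was smaller, 1.70 (adjusted p = 0.0878, limma), from 186 and 167 CPM to 574 CPM. Id3 rose from 652 and 524 to 3334 and 3716 CPM, by 2.59 ± 0.27 (adjusted p = 0.00331, limma).
Id4 was very low in WT progenitors, at 0.318 and 1.15 CPM (5 reads in all), and stood at 71.2 and 80.1 CPM in serum, a difference of 5.51 ± 0.40 (adjusted p = 0.00157, limma). For each of the 4 Id genes, both serum libraries lay above both progenitor libraries. How many of all genes separate in this way was not counted, and 42.6% of all genes tested had an unadjusted p under 0.05 (limma).

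Bmpr1a rose from 12.4 and 14.6 to 66.5 and 75.4 CPM, by 2.31 ± 0.26 (adjusted p = 0.00368, limma). Smad6 was at 0 in both progenitor libraries and at 8.61 and 4.28 CPM in serum, so the fold is 14.3 or more, taking 3 reads over the progenitor pair as the floor (2.83 ± 0.44 fitted, adjusted p = 0.00943, limma). Smad7 rose from 0.953 and 0.574 to 7.83 and 7.25 CPM, by 2.28 ± 0.39 (adjusted p = 0.0117, limma). Both inhibitor genes were near the detection limit in progenitors.
Smad1 differed by 0.57 (adjusted p = 0.269) and Smad5 by -0.75 (adjusted p = 0.0653), and neither passed (limma). Of the 9, Smad5 had a lower mean in serum, 47.4 ± 6.02 against 80.4 ± 11.7 CPM (SD, n = 2).

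With 2 libraries a side the calls rest on all 4. In limma, 0 genes of 10 and 0 of all genes passed without either WT progenitor library, although 7 of the 10 had an unadjusted p under 0.05, beside 20.2% and 20.3% of all genes. Without WT serum replicate 2 likewise 0 passed (9 of 10 at unadjusted p under 0.05, beside 35.3% of all genes), and without replicate 3 only Smad6 did (1 of 9, beside 7.04% of all genes). With 1 library left out, Id1 ranged from 4.11 to 4.66, Id2 from 2.50 to 3.70 and Smad6 from 2.40 to 3.26. In the R9 libraries alone (1 serum, 2 progenitor) 1 of the 10 passed, beside 9.40% of all genes, and the sign was the same as in R10 for each of the 9 tested in both.

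Of 32 other BMP genes tested, 12 rose and 1 fell, beside 14.9% of all genes higher and 11.9% lower. Bmp6, Nog and Smad9 met the CPM filter only through serum libraries, so the filter set their direction in part. Atoh8, a BMP target, rose the most, from 0.953 and 1.43 CPM to a mean of 154 CPM (6.14). The ligand Bmp6 was at 0 in both progenitor libraries and at a mean of 22.7 CPM in serum, at least 50.2-fold higher. Bmp1 rose by 2.66 and the antagonist Chrd by 2.11. Smad9, another SMAD of the BMP branch, and the antagonist Nog were at 0 in both progenitor libraries and rose at least 7.38-fold and 6.65-fold. The gene that fell was the E-protein gene Tcf12 (-1.07, named after its value was seen). None of the 6 receptor genes tested passed.
Astrocyte markers moved in the same libraries: the summed CPM of 5 markers was 1196 and 1441 in progenitors and 7055 to 7237 in serum, with Gfap higher by 8.12. The summed level of the 6 progenitor markers was 4009 to 5248 in NPC medium and 2525 to 5118 in serum, and that of the pluripotency markers at most 20.3 CPM in either. Aqp4 was at 0 in both WT progenitor libraries. Mesenchymal markers summed to 20.3 to 31.0 CPM in NPC medium and 101 to 228 CPM in serum, with 2 of 5 higher. The part of these markers in the Id result was not tested.

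Along the R9 time course Id1, Id3 and Id4 rose within 2 days of serum, and were above day 0 in both systems up to day 14. Bmp4 rose late, and Smad1 and Smad5 fell. Of the 10 genes, 5 were called with a largest difference above day 0 (Id1, Id3, Id4, Bmp4, Smad7) and 3 with one below (Bmpr1a, Smad1, Smad5), where 5.50% of 19357 genes were called above and 5.24% below (10.7% in all). The test is limma's moderated F test over 6 days against day 0, with 1 OKMS and 1 OKS library per day. Id4 and Bmp4 met the CPM filter only through serum libraries.

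Id1 went from 22.9 (OKMS) and 28.7 (OKS) CPM at day 0 to 771 and 957 CPM at day 2, its largest difference (5.01 ± 0.63, adjusted p = 0.00336, limma). In OKMS it then stood at 315, 254, 316, 279 and 296 CPM at days 4, 6, 10, 14 and 20. In OKS it was 1294, 1233, 1376, 824 and 167 CPM. OKS was the higher at each day but day 20, when OKMS was.
Id3 rose from 366 and 369 to 2302 and 3487 CPM at day 2 (2.94 ± 0.54, adjusted p = 0.00624), stayed between 768 and 840 CPM in OKMS through day 14, and was at 169 (OKMS) and 320 (OKS) CPM at day 20, under both day 0 values. Id2 was at 183 and 175 CPM at day 0, 634 and 949 CPM at day 2 and 159 and 144 CPM at day 20, and missed the threshold (2.11 ± 0.55, adjusted p = 0.0538, limma). It passed in 6 of 14 alternatives.
Id4 rose from 2.69 and 0 CPM to 78.0 and 150 CPM at day 2 (5.83 ± 0.80, adjusted p = 0.00349, limma) and was at 16.0 and 15.1 CPM at day 20.

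**Figure D2:**
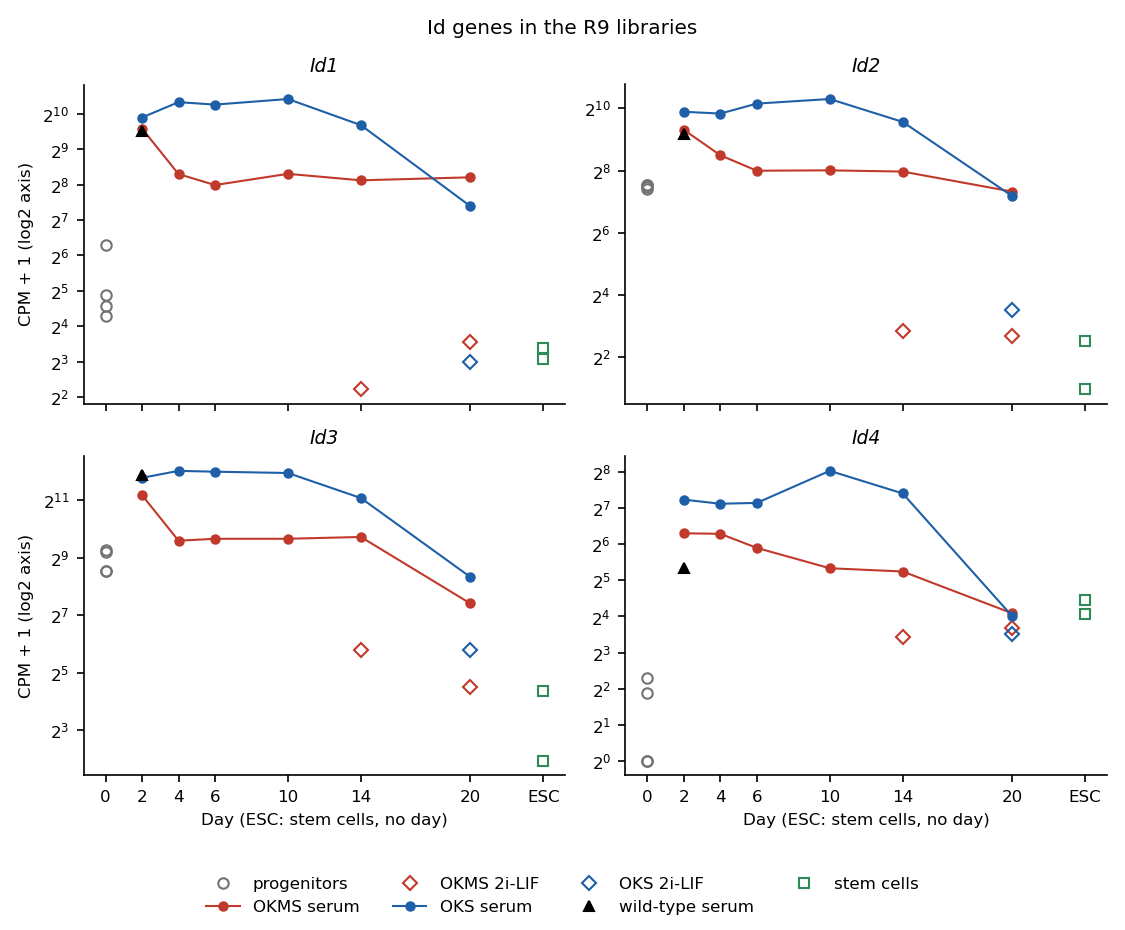
CPM + 1 on a log2 axis against day for the 4 Id genes in R9: open grey circles, 4 progenitor libraries at day 0; lines, OKMS and OKS in serum; black triangle, WT in serum; diamonds, 2i-LIF; green squares, 2 stem cell libraries. At day 2 Id1 stood at 771, 957 and 730 CPM in OKMS, OKS and WT cells, and for Id1, Id2 and Id3 the 2i-LIF libraries lie below all 4 progenitor libraries.

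Bmp4 was at 0 CPM in both systems at days 0 and 2, reached 7.03 and 2.23 CPM at day 10 and 17.2 and 25.2 CPM at day 20 (4.45 ± 0.89, adjusted p = 0.0384, limma). It did not pass without day 20 (largest difference 2.52, adjusted p = 0.319), without day 2 (adjusted p = 0.0867) or with a pseudocount of 0.25 (adjusted p = 0.0602). With 0 reads at day 0 the fitted difference depends on the pseudocount and is no bound.
Bmpr1a was at 59.2 and 48.9 CPM at day 0 and 115 and 154 CPM at day 2, and fell to 14.8 and 20.8 CPM at day 20, which was its largest difference (-1.56 ± 0.47, adjusted p = 0.0197). Without day 20 the largest difference was the gain at day 2 (1.29) and the gene did not pass (adjusted p = 0.428). It also missed under quantile normalization (adjusted p = 0.0510).
Smad5 fell from 127 and 169 CPM at day 0 to 33.9 and 46.8 CPM at day 2 and 24.6 and 23 CPM at day 20 (-2.57 ± 0.36, adjusted p = 0.00836, limma). Smad1 went from 43.1 and 42.2 to 6.16 and 16.5 CPM at day 20 (-1.96 ± 0.39, adjusted p = 0.0253) and did not pass without day 20 (-0.58, adjusted p = 0.594) or without day 2 (adjusted p = 0.0611), under quantile normalization (0.0511) or in DESeq2 (0.0558).
Smad7 rose from 2.69 and 3.37 to 29.5 and 35.7 CPM at day 10 (3.06 ± 0.60, adjusted p = 0.0481, limma). The call lies at the threshold and was lost in 7 of 14 alternatives: without day 2, 4, 10 or 20 (adjusted p up to 0.135), with a pseudocount of 0.25 (0.0506), with quantile scaling (0.0650) and on R10 days 0, 2 and 6 (0.264). Smad6 was at 0 in both day 0 libraries and reached 5.63 and 26.8 CPM at day 10, but did not pass (adjusted p = 0.0615, limma). It passed in 3 of 14 alternatives: in limma with a pseudocount of 0.25 (adjusted p = 0.0305) or a minimum CPM of 5 (0.0333), and in edgeR (0.00597).

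**Figure D3:**
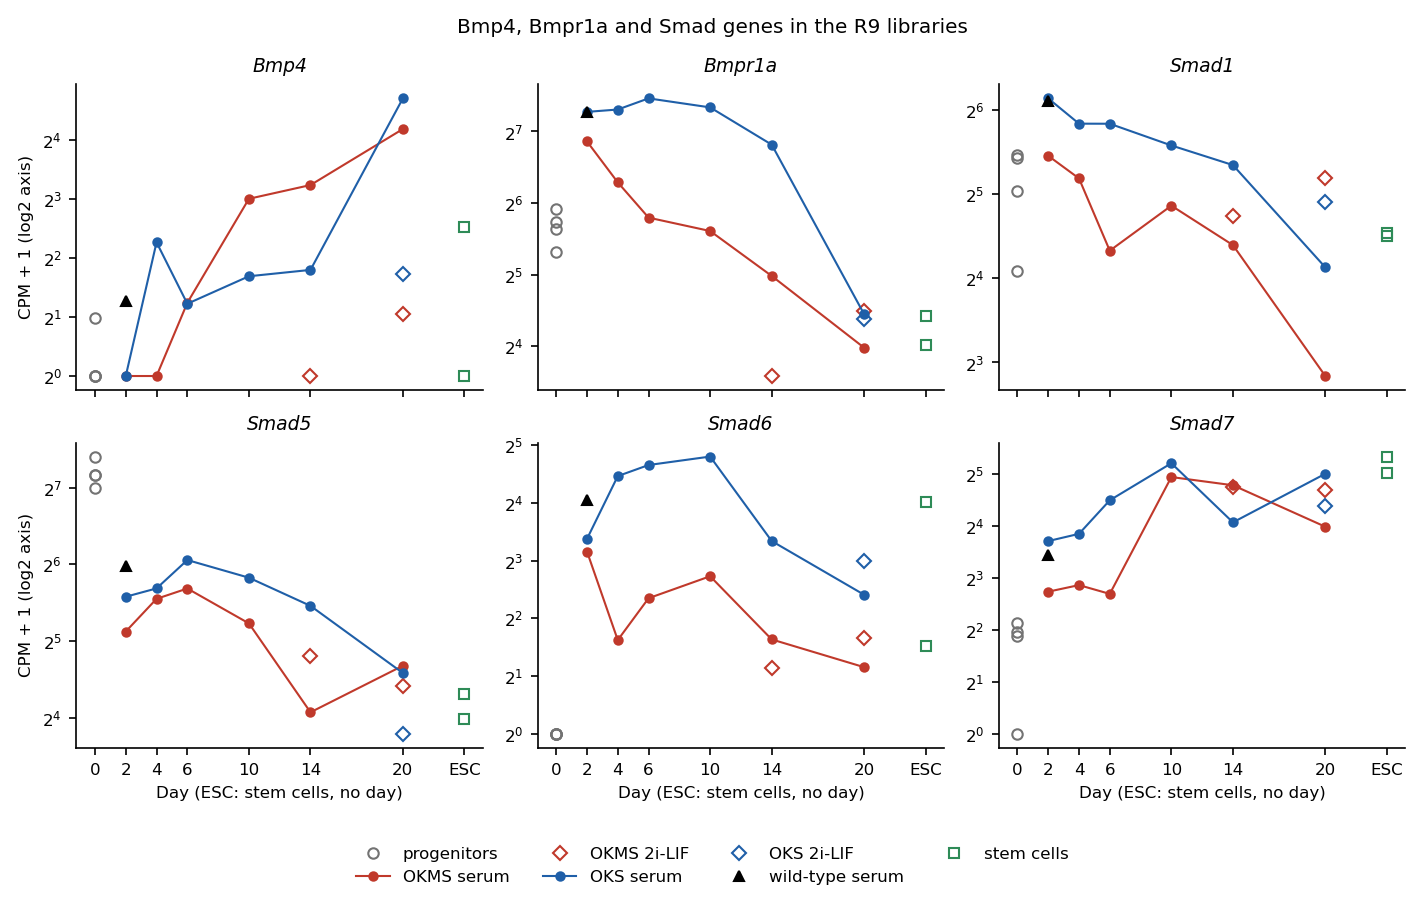
CPM + 1 on a log2 axis against day in R9 for Bmp4, Bmpr1a and the Smad genes, with the symbols defined in the legend. Smad5 is highest in the 4 progenitor libraries, Bmp4 is highest in the 2 serum libraries of day 20 (17.2 and 25.2 CPM), and OKS lies above OKMS for Bmpr1a at each serum day.

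Dropping day 20 left 3 of the 10 genes called, beside 3.23% of all genes, and dropping day 2 left 5, beside 7.32%. Id3 also lost its call without day 20 (adjusted p = 0.0890). The R10 course was shorter (days 0, 2 and 6), and 2 of 9 genes passed there, Id1 and Id4, beside 0.735% of all genes. R10 serum libraries showed Id1 at 511 (OKMS) and 912 (OKS) CPM at day 2, 238 and 1160 CPM at day 6, and 116 and 252 CPM at day 18.
Among 39 other BMP genes, 4 were called above day 0 and 7 below, beside 5.50% and 5.24% of all genes. Atoh8 was highest above (5.69), with Nbl1 next (3.85). Bmper, a secreted BMP-binding protein, fell by 4.95, the E-protein genes Tcf12 and Tcf4 fell by 4.22 and 3.28, and Bmp1 fell by 2.78. Neural progenitor markers fell (6 of 6) and pluripotency markers rose (5 of 6) over the same days. Their summed CPM in serum ran from 2280 (OKMS) and 4462 (OKS) at day 2 to 16.0 and 48.9 at day 20 for the former, and from 68.9 and 88.2 to 9440 and 8137 for the latter. Of 5 mesenchymal markers 2 rose and 1 fell, and their summed CPM was 75.4 (OKMS) and 106 (OKS) at day 0, 592 and 761 at day 2, 299 and 1383 at day 6, and 80.0 and 379 at day 20. Of 5 astrocyte markers 1 rose and 2 fell, at 1457 and 1455 CPM at day 0, 1474 and 2948 at day 2, and 32.0 and 148 at day 20. Of 4 neuron markers 2 rose and 1 fell, at 322 (OKMS) and 293 (OKS) CPM at day 0 and 904 and 997 at day 20. What part these markers had in the course of the Id and BMP genes was not tested.

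OKMS and OKS differed in the same R9 serum libraries that make up the time course. Each system is 1 line with 1 library per day, so the days serve as replicates. A difference between lines or cultures cannot be told here from one between systems. With day as a block, Id1, Id2, Id3, Id4, Bmpr1a and Smad6 were lower in OKMS than in OKS, 6 lower and 0 higher of 10 genes tested, where 11% of 14277 genes were lower and 6.93% higher (18% called). The median difference was -1.22 over the 10 genes and -0.11 over all genes tested.
Id3 showed the largest difference of the Id genes, at -1.65 ± 0.25 (adjusted p = 0.00126, limma), with OKMS lower on 6 of 6 days. Id2 differed by -1.31 ± 0.27 (adjusted p = 0.00461), Id4 by -1.30 ± 0.30 (adjusted p = 0.00699) and Id1 by -1.25 ± 0.34 (adjusted p = 0.0164). At day 20 OKMS was not lower for these 3 genes: it had 159 against 144 CPM of Id2, 16.0 against 15.1 CPM of Id4 and 296 against 167 CPM of Id1. Id2 rests there on 129 (OKMS) and 200 (OKS) reads and Id4 on 13 and 21, so their order cannot be read.
Smad6 was at 7.91, 2.09, 4.09, 5.63, 2.11 and 1.23 CPM in OKMS and at 9.36, 21.0, 24.1, 26.8, 9.10 and 4.31 CPM in OKS at days 2, 4, 6, 10, 14 and 20, a difference of -1.73 ± 0.41 (adjusted p = 0.00863). The Smad6 values of OKMS rest on few reads. At days 4 and 20 they equal 1 read, and at day 14 the value lies under that of 3 reads (3.17 CPM). The size of the Smad6 difference is therefore uncertain. Bmpr1a was lower in OKMS on each day, by -1.19 ± 0.23 (adjusted p = 0.00298). Smad1 differed by -0.97 (adjusted p = 0.00731), under the fold minimum, and Smad5, Smad7 and Bmp4 by -0.47, -0.72 and 0.00 (adjusted p of 0.133 or more).

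Id1 lost its call without day 4 (adjusted p = 0.0656), day 6 (0.0702) or day 10 (0.0554). In R10, on days 2, 6 and 18, limma called 0 of 10 genes and 0 of all genes, with 6 of the 10 and 15.8% of all genes at unadjusted p under 0.05, and Id3 differed there by -1.94 (adjusted p = 0.235). With no day block 0 of the 10 passed, with 7 of them and 28.6% of all genes at unadjusted p under 0.05.
Of 33 other BMP genes, 12 were lower in OKMS and 0 higher. The largest differences were in Nbl1 (-2.78), Tcf4 (-2.48), Atoh8 (-2.31), the pseudoreceptor gene Bambi (-2.05), Bmp6 (-2.03) and Bmp1 (-1.98). Of the pluripotency markers, 3 of 6 were higher in OKMS, at 68.9 against 88.2 summed CPM at day 2, 4909 against 84.8 at day 10 and 9440 against 8137 at day 20. Mesenchymal markers were lower (3 of 5), at 482 against 1069 CPM at day 10. Astrocyte markers were lower too (4 of 5), at 722 against 1615 CPM at day 10, but at 380 against 314 at day 14. Neural progenitor markers were lower as well (3 of 5), with the OKMS sum under the OKS sum on 6 of 6 days, from 2280 against 4462 CPM at day 2 to 16.0 against 48.9 at day 20. Of 3 neuron markers 2 were higher and 1 lower, at 411 against 178 CPM at day 10 and 904 against 997 at day 20. The share of reads from mitochondrial genes was lower in OKMS on each serum day from 2 to 14, at 0.430% against 0.989% at day 10. It was higher in OKMS at day 20, at 0.430% against 0.387%. The part of these markers and of this share in the Id difference was not tested.

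Stem cells in 2i-LIF had less Id1, Id2, Id3 and Smad5 than progenitors and more Id4 and Smad7, in both chemistries, although the R9 call of Id1 did not hold in most alternatives. In R10 (7 against 4 libraries) 3 of 9 genes tested were higher and 4 lower, where 22.4% of 15415 genes were higher and 23.5% lower (45.8% called). In R9 (2 against 4) it was 3 higher and 5 lower of 9, beside 17.6% and 18.4% of 15746 genes (36.0% called). The 3 higher in R10 (Id4, Bmp4 and Smad7) met the CPM filter only through stem cell libraries, as did Smad6 in R9. With that many genes called in all, the count among the 10 is read as a description. The WT progenitor libraries also enter the serum comparison.
Id2 had 66.4, 154, 176 and 176 CPM in the R10 progenitors and 3.63 to 15.5 CPM (median 7.47) in the R10 stem cells, a fall of 3.86 ± 0.36 (adjusted p = 1.22e-07, limma). Its R9 values were 167 to 186 CPM in progenitors and 0.947 and 4.65 CPM in stem cells (-5.75 ± 0.40, adjusted p = 0.000117).
Id1 was at 22.7 to 47.3 CPM in R10 progenitors and 7.30 to 18.7 CPM (median 10.1) in stem cells, with no overlap (-1.57 ± 0.25, adjusted p = 4.35e-05, limma). The share of all genes that separate so was not counted. In R9 the difference was -1.78 ± 0.57 (adjusted p = 0.0438) and lost its call in 8 of 14 alternatives: without either stem cell library or without the OKMS or the OKS progenitor (adjusted p up to 0.303), with no filter (0.0614), with quantile normalization (0.0813), in edgeR on recovered reads (0.0559) and with WT progenitors only (0.0872).
Id3 fell in both chemistries, by sizes that differed between them in a test that rests on 1 library. R10 stem cells held 37.1 to 161 CPM (median 75.3) against 488 to 652 CPM in progenitors (-2.85 ± 0.32, adjusted p = 1.06e-06, limma). R9 stem cells held 2.84 (O4G) and 19.5 (R1) CPM against 366 to 618 CPM (-5.73 ± 0.64, adjusted p = 0.000718). The fall was larger in R9 by 2.88 ± 0.64 (adjusted p = 0.0191 for the interaction, limma), a test that 3.83% of 15300 genes passed. Without the R9 O4G library the difference of differences was -1.67, and the call was lost (adjusted p = 0.164, limma). For Id2 the same test gave -1.89 (adjusted p = 0.0678), and it passed without the R10 stem cell library R1 replicate 3 (-1.91, adjusted p = 0.0406, limma).

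Id4 ran the other way: 0.318 to 10.5 CPM in R10 progenitors and 9.68 to 20.7 CPM in stem cells (2.06 ± 0.45, adjusted p = 0.000714, limma). The OKS progenitor, at 10.5 CPM, overlapped the stem cells. In R9 the values were 0 to 3.87 and 15.8 to 20.8 CPM (3.22 ± 0.78, adjusted p = 0.0163), a call lost without either stem cell library (adjusted p of 0.144 and 0.176) and with a pseudocount of 0.25 (0.0540).
Smad7 was at 0.574 to 1.32 CPM in R10 progenitors and 17.0 to 35.8 CPM in stem cells (3.78 ± 0.23, adjusted p = 8.82e-10), and at 0 to 3.37 and 31.2 to 39.1 CPM in R9 (3.67 ± 0.66, adjusted p = 0.00482, lost without either R9 stem cell library at adjusted p of 0.0749 and 0.0917). Smad5 fell from 72.1 to 141 CPM to 14.6 to 18.3 CPM in R10 (-2.61 ± 0.18, adjusted p = 3.91e-09) and by 3.03 ± 0.17 in R9 (adjusted p = 7.08e-05).
Bmp4 was at 0 in all 4 R10 progenitors and at 1.12 to 8.07 CPM in the stem cells, which puts the fold at 15.4 or more with 3 reads over those 4 libraries as the floor (2.19 ± 0.40 fitted, adjusted p = 0.000155, limma). It was not tested in R9, where the stem cells had 4.73 (O4G) and 0 (R1) CPM. Smad6 was at 0 in the 4 R9 progenitors and at 15.1 (O4G) and 1.86 (R1) CPM in stem cells, a fold of 8.84 or more on the same kind of floor (adjusted p = 0.0144, limma). The call was lost in DESeq2 (adjusted p = 0.175) and against WT progenitors alone (0.0664), and the fitted value of 2.77 became 1.52 without O4G. In R10 it was not tested, at 0 to 1.55 CPM in stem cells and 0 to 0.584 CPM in progenitors.
Bmpr1a differed by -0.74 in R10 (adjusted p = 0.0348, under the fold minimum) and -1.43 in R9 (adjusted p = 0.00301). Smad1 differed by -0.98 (adjusted p = 0.000756, also under the minimum) and -0.48 (adjusted p = 0.382).

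Without the O4G library, 5 of the 9 genes were called in R9, beside 23.5% of all genes. The R1 stem cell library without an n number shares its low mitochondrial share with the WT progenitors. Alone against the 4 R10 progenitors it gave -1.51 for Id1 (adjusted p = 0.0674) and 2.41 for Id4 (adjusted p = 0.266), where the signs of all 7 libraries held.
Of the other BMP genes, 6 of 32 were higher and 16 lower in R10 stem cells, and 3 of 30 higher and 10 lower in R9. Over all genes, 22.4% were higher and 23.5% lower in R10, and 17.6% higher and 18.4% lower in R9. Bmp1 (-4.94 in R10 and -6.65 in R9), Bmper (-4.28 in R10, and at 0 in both R9 stem cell libraries), Tcf4 (-3.83 and -3.90) and Tcf12 (-3.39 and -4.03) fell in both. The co-receptor Eng was higher by 4.11 in R10, and the type II receptor gene Bmpr2 fell by 2.92 there. In R9, Fstl1 fell by 4.26, and Nbl1 was at 0 in both stem cell libraries, at least 12.8-fold lower.

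**Figure D4:**
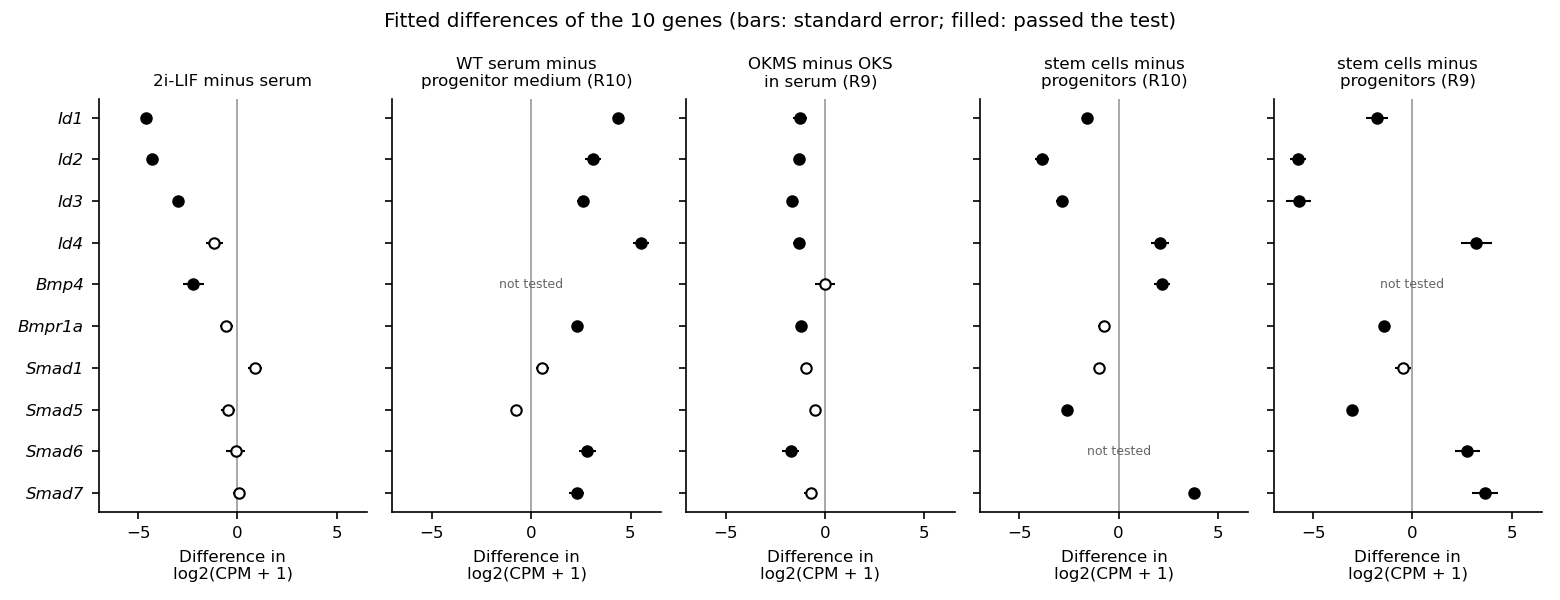
Fitted difference in log2(CPM + 1) with its standard error for the 10 genes in 5 comparisons; filled points passed the test and open points did not. Id1, Id2 and Id3 are left of 0 in 2i-LIF against serum and in stem cells against progenitors, and right of 0 in WT serum (4.38, 3.10 and 2.59).

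Ordered by mean level, Id1 was lowest in 2i-LIF (8.27 ± 2.98 CPM, SD, n = 5) and in stem cells (8.46 ± 1.43, n = 2, R9; 10.8 ± 3.93, n = 7, R10), whose ranges overlapped. Progenitors followed (33.8 ± 10.2, n = 4, R10; 36.9 ± 27.5, n = 4, R9), then the 5 serum libraries of days 14 to 20 with a 2i-LIF partner (222 ± 77.1), and WT cells in serum (597 ± 51.8, n = 2, R10). The lowest R9 progenitor (18.4 CPM) lay just under the highest R10 stem cell library (18.7 CPM). Id2 means were 2.80 (R9) and 9.18 (R10) CPM in stem cells, 7.68 in 2i-LIF, 143 (R10) and 178 (R9) in progenitors, 172 in late serum and 876 in WT serum. Its ranges overlapped between stem cells and 2i-LIF, and between progenitors and late serum.
Across the 45 libraries, after each chemistry's mean was taken off, log2(CPM + 1) of Id1, Id2 and Id3 ran close together (Pearson r of 0.91 for Id1 with Id2, 0.87 for Id1 with Id3 and 0.94 for Id2 with Id3). The 45 libraries share conditions and lines, so these are descriptions. With Id1, r was 0.73 for Id4, 0.83 for Bmpr1a, -0.01 for Bmp4 and -0.11 for Smad7. Of 13572 genes, the nearest to Id1 were Clu (0.96), Thbs1 (0.95) and Tm4sf1 (0.95), and to Id2 Dpysl3 (0.95), Cavin1 (0.95) and Prnp (0.95). The nearest to Id3 were Kctd10 (0.96), Fstl1 (0.95) and Spop (0.95), and to Id4 Slc31a2 (0.92), Serping1 (0.90) and Pcolce2 (0.89).

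The deposited transcript values (TPM) resolved the Id genes unevenly. The summed TPM of a gene's transcripts, divided by its CPM, had a median over libraries of 1.65 for Id2 and 2.33 for Id4 but 0.12 for Id1, 0.17 for Id3 and 0.08 for Bmpr1a, so transcript shares are given for Id2 and Id4 only. No test was made on them.
Id2 had 3 main coding transcripts, each with a reading frame of 134 residues. The 1273-base form that matches the reference took 50.2% ± 3.87 of Id2 TPM in R10 progenitors (SD, n = 4), 51.1% ± 1.05 in WT serum (n = 2) and 41.0% ± 7.50 in R10 stem cells (n = 7). A 798-base form with another 3′ end took 26%, 24.6% and 29.5%. Groups overlapped for that form, while the level of the 1273-base form itself was at a mean of 110, 750 and 4.92 TPM.
In most R10 libraries Id4 was mostly 1 short transcript. A 408-base form of 2 exons, with an unannotated splice site and classed as non-coding, took 94.7% to 100% of Id4 TPM in R10 progenitors, where Id4 had 1, 4, 10 and 18 reads in all, 98.5% and 99.2% in WT serum and 97.5% to 99.6% in R10 stem cells. In R9 serum libraries of days 2 to 14 its share was lower, 54.0% ± 21.3 (SD, n = 10), and it was listed at 0 in OKS day 14. It was listed at 0 in the 4 R9 progenitors (0, 0, 2 and 4 Id4 reads of any form), in all 5 2i-LIF libraries (3 to 11 reads), and in the R10 serum libraries of day 18, where OKS had an Id4 level of 46.1 CPM but a summed level of 1.08 TPM. Beside it, a 1548-base coding form took 25.4% ± 11.8 in R9 serum and at most 2.08% in the R10 progenitors.

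**Figure D5:**
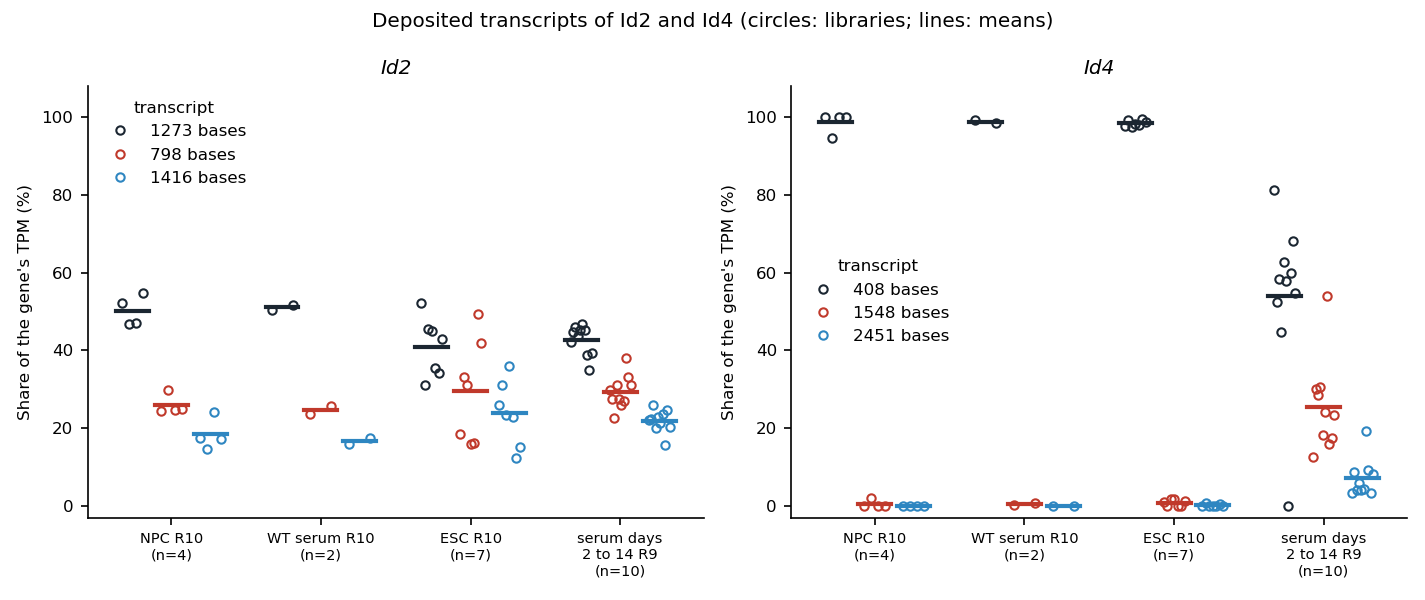
Share of a gene's TPM (percent) in its 3 leading deposited transcripts, for Id2 (left) and Id4 (right); circles are libraries, lines are means. The 3 Id2 forms keep their order of means in each group, and the 408-base Id4 form lies above 94% in the R10 groups shown and between 0 and 81.3% in R9 serum.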

How the data were processed

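The deposited gene values are CPM and the deposited transcript values are TPM, both named in their file names as output of IsoQuant, and the authors deposited them for all libraries together. Reads were aligned with minimap2 2.24-r1122 to mm10, per the submitters' processing notes. The counting settings, strand use included, are not given in the sources used here. Transcript lengths and classes come from the authors' deposited transcript models. Of 58 value columns in the gene table, 13 matched no sample and were not used.

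Each CPM value was a whole multiple of what 1 read is worth, within 0.02 reads, in 100% of values, which gave the depths and the read counts. TPM keeps no depth. Differences were fitted with limma 3.58.1 (R 4.3.3, trended eBayes, two-sided, Benjamini-Hochberg over all genes tested) on log2(CPM + 1), after a filter of CPM of at least 1 in as many libraries as the smaller group holds (2 for the time course). Pairs entered the 2i-LIF fit as a block, days the fit of OKMS against OKS, and system (OKMS or OKS) the time course. Fits were repeated with a pseudocount of 0.25, without the filter, with a minimum CPM of 5, with quantile or median scaling, on other sample sets and with libraries left out. The recovered reads were also fitted in edgeR 4.0.16 (quasi-likelihood) and DESeq2 1.42.0. Each fitting step was tested on simulated data. A floor is 3 reads over a group and covers counting error only.

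The 10 genes and all gene lists were chosen with earlier results of these data known. Other BMP genes came from a list of 52, of which 40 are in the table. Those named with values are the called genes, at most the 6 with the largest difference, except where said. Nearest genes were the 3 with the highest r among genes at CPM of at least 1 in 23 or more libraries. Figures were drawn with matplotlib 3.10.9.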

Additional observations from a re-analysis of the deposited data

Results flagged for a closer look

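The fall of Id3 from progenitors to stem cells was larger in R9 than in R10 by 2.88 on the log2 scale (difference of differences -2.88 ± 0.64, adjusted p = 0.0191, limma). With 1 library left out, chosen as an alternative after seeing the data, the difference of differences ranged from -4.09 to -1.67, and it lost its call without the R9 O4G stem cell library (-1.67, adjusted p = 0.164, limma), where Id3 had 3 reads. The chemistries differ in RNA input, library method and stem cell libraries, which cannot be told apart here. In all, 38 pairings of a gene with a group of 4 to 7 libraries were examined for a single library far from the rest, and 2 had one. Chance alone flags about 1 in 20 for normally spread values. That rate need not hold here, where each flag is 1 read against 0. Smad6 was at 0.584 CPM (1 read) in the R10 OKS progenitor and at 0 in the other R10 progenitors. Bmp4 was at 0.968 CPM (1 read) in R9 WT progenitor replicate 2 and at 0 in the other R9 progenitors.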

How the results depend on the processing

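Of 886 alternative values for single genes, 763 kept their direction and their side of the threshold, 86 lost the call, 20 gained one and 17 changed sign. The changes of sign fell on differences near 0, apart from Bmpr1a in the time course. Between 2i-LIF and serum, Smad6 turned to 0.0013 with median centring, 0.17 in edgeR, 0.20 in the R9 pairs, 0.055 in the OKMS pairs, and -0.26 to 0.19 when 1 pair was left out, and Smad7 to -0.45 in the OKS pairs and -0.093 to 0.24 with 1 pair left out. Bmpr1a in the time course ranged from -1.56 to 1.29 with 1 day left out and was 1.27 on R10 days 0, 2 and 6. Bmp4 in OKMS against OKS was 0.18 with quantile scaling, 0.15 with median centring, 0.24 in edgeR, 0.21 in DESeq2, and -0.29 to 0.45 with 1 day left out. The causes were not tested.

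Genes called between 2i-LIF and serum numbered 1166 in the R9 pairs, 188 in the R10 pairs, 801 in the OKMS pairs, 2298 in the OKS pairs and 1210 to 1908 with 1 pair left out, against 1832 from all 5 pairs. For WT serum, R9 alone called 1562 genes and 1 of the 10, and leaving out 1 library gave 0 to 1141 genes and 0 to 1 of the 10 in limma, with 3300 to 6246 genes at unadjusted p under 0.05. The time course called 1633 genes and 5 of the 10 with quantile scaling, 4573 genes in edgeR, 119 genes and 2 of the 9 tested on R10 days 0, 2 and 6, and 601 to 2423 genes and 3 to 9 of the 10 with 1 day left out. OKMS against OKS called 0 genes and 0 of the 10 on R10 days 2, 6 and 18 (2389 genes at unadjusted p under 0.05), 2 genes and 0 of the 10 with no day block, and 1686 to 3236 genes with 1 day left out. Stem cells against R9 progenitors called 5 to 8 of the 9 or 10 tested, and 22.7% to 38.9% of all genes, with 1 library left out.

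For WT serum, the replicate block called 5605 genes against 3940 without it and 7 of the 10 genes both ways. Libraries with the same number deviated together (r = 0.47 over 14688 genes, 2 pairs), but the labels give no shared source for a number, so the block is not used in the report.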

Other observations

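The gene table also holds antisense rows beside 3 of the genes. The row antisense to Bmpr1a had a median of 2.73 CPM and a maximum of 18.8 CPM over 45 libraries, and was at 0 in 4. The row antisense to Id1 had a median of 1.76 and a maximum of 20.1 CPM and was at 0 in 16 libraries, and the one antisense to Id2 reached 4.48 CPM and was at 0 in 24.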
